A study of Mus musculus with 31 samples.

Results

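The neuregulin ligands and the ErbB receptors were followed across laser-microdissected nerve tissue of embryonic mice, in which they comprise the genes Nrg1, Nrg2, Nrg3, Nrg4, Egfr, Erbb2, Erbb3 and Erbb4. These 8 genes were found by symbol among the 47729 genes of the count matrix, with 1 row each. The tissue came from embryos carrying a Sox10:H2BVenus transgene, a nuclear reporter driven by Sox10 regulatory sequence that marked glia and guided the dissection, so every group shares it. At E16.5 the groups were olfactory nerve in the olfactory mucosa (n = 4), outer ONL (n = 4), inner ONL (n = 4) and trigeminal nerve (n = 3), where ONL is the olfactory nerve layer that wraps the olfactory bulb. Each library was a pool of tissue cut from several sections. The E16.5 groups came from 4 embryos or, for the trigeminal nerve, from 3, and the trigeminal nerve was cut from the same sections as the others, so these groups share embryos. Whether libraries with the same number came from the same embryo was not given in the sources used here. At the earlier stages there were olfactory nerve at E11.5 (n = 4, from 2 embryos) and E13.5 (n = 7, from 4 embryos) and ONL at E13.5 (n = 5, from 4 embryos). Libraries from the same embryo are not independent, so p-values that involve the E11.5 or E13.5 groups are too small. Inner and outer ONL were separated by position alone, and the pieces also held some adjacent tissue. According to the study, these cuts did not separate the inner and outer glial subpopulations that differ in marker genes.

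Neuregulins are EGF-like growth factors, many of them made as membrane-bound precursors. They bind Erbb3 or Erbb4, and the bound receptor pairs with Erbb2, which has no ligand of its own. Erbb3 binds neuregulins but has little kinase activity, so that it signals mainly through its partner. Axonal neuregulin 1 acting on Erbb2 and Erbb3 is required for the survival, migration and myelination of Schwann cells. Olfactory ensheathing cells (OECs), the glia of the olfactory nerve, share their neural crest origin and the transcription factor Sox10 with Schwann cells. Egfr binds another set of ligands, among them transforming growth factor alpha, and can also pair with Erbb2.

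For 10 of the 31 libraries, all from the earlier stages, the label did not match the group whose published mean the library had entered. The libraries labelled E11.5 olfactory nerve 1 to 4 and E13.5 olfactory nerve 1 had entered the E13.5 ONL mean. The libraries labelled E13.5 ONL 2 to 5 had entered the E11.5 nerve mean, and the library labelled E13.5 ONL 1 the E13.5 nerve mean. Both groupings are given below, the one followed by those means as "regrouped" and the other as "by label". Markers of olfactory bulb projection neurons (5 genes) summed to 771 to 1033 CPM (counts scaled to the effective library size) in the 5 libraries of the regrouped E13.5 ONL. The same sum was 42.2 to 65.8 CPM in the regrouped E13.5 nerve and 26.0 to 46.4 CPM in the regrouped E11.5 nerve, and Neurod6, a projection neuron factor, had no count in any library of the latter. By label, the libraries at 771 CPM or more were the 4 named E11.5 nerve and 1 named E13.5 nerve. Markers of glia summed to 4275 to 6670 CPM in the regrouped E13.5 ONL and to 473 to 1012 CPM in the regrouped E13.5 nerve. Gene by gene, with the test described below, 3 of these 6 markers were higher and 1 lower in that ONL. The other 2 showed no difference by that test, and the median log2 difference was 0.76. All E16.5 libraries had the same group under both groupings. Regrouped averages deviated from the published E13.5 ONL means by a median of 0.000111% over 1588 genes, and averages by label by 28.8%. As every library labelled E13.5 ONL had entered a nerve mean, values by label for that tissue rest on libraries published as nerve.

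Total counts ran from 3512627 to 36705535 per library. The trigeminal nerve libraries, with 30221586 to 32508725 counts, were deeper than the other E16.5 libraries, with 13379107 to 16800784. Sox10 was detected in every library. It reached 564 to 711 CPM in outer ONL, 360 to 680 CPM in inner ONL, 305 to 380 CPM in trigeminal nerve and 98.8 to 179 CPM in olfactory nerve. Schwann cell markers (3 genes) summed to 1169 to 1654 CPM in trigeminal nerve and to no more than 69.9 CPM in any other E16.5 library. In bulk tissue, fewer cells of a type and less RNA per cell cannot be told apart.

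Differences were tested with edgeR on all genes that passed a filter on low counts, and those with an adjusted p below 0.05 are referred to as called. Nrg2 did not pass the filter in either fit, so 7 of the 8 genes were tested.

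Nrg1 (chr8:31814551-32884029, minus strand, GRCm38) encodes the neuregulin best known from Schwann cell development. In E16.5 olfactory nerve it was at 12.7, 12.1, 12.6 and 21.6 CPM. In outer ONL it was at 0.23, 2.53, 0.77 and 1.16 CPM, and in inner ONL at 2.29, 5.59, 3.16 and 4.06 CPM. The trigeminal nerve held 0.33, 2.45 and 1.54 CPM. Every olfactory nerve library was thus above every library of the 3 other groups, while outer ONL, inner ONL and trigeminal nerve overlapped one another. The group mean was 14.7 ± 4.58 CPM (SD, n = 4) in olfactory nerve and 1.17 ± 0.98 CPM (SD, n = 4) in outer ONL. The log2 difference, outer ONL over olfactory nerve, was -3.68 (SE 0.59, adjusted p = 0.000172). Olfactory nerve exceeded trigeminal nerve by a log2 fold change of 3.45 (SE 0.64, adjusted p = 0.000589), and inner ONL was lower than olfactory nerve by a log2 fold change of -1.996 (SE 0.54, adjusted p = 0.00632). These calls held in every alternative fit of each comparison. The levels are of RNA in the pieces, the trigeminal ones cut from nerve branches, and neuregulin protein on axons was not measured. Inner over outer ONL gave 1.69 (SE 0.57, adjusted p = 0.0509), which passed the threshold with DESeq2 (adjusted p = 0.0136) and with libraries paired by number (adjusted p = 0.0107). Of the 5 markers of olfactory sensory neurons, Omp and Gng8 had their highest group means in olfactory nerve, as Nrg1 did, at 39.6 and 49.5 CPM, and Gap43, Ncam1 and Stmn2 had theirs in inner ONL. In outer ONL over olfactory nerve 2 of the 5 were lower and 1 was higher, with a median of -1.01, and in olfactory nerve over trigeminal nerve 3 were higher and 0 lower, with a median of 2.35. In inner ONL over olfactory nerve 3 were higher and 2 lower, with a median of 1.04. The part of sensory neurons in the Nrg1 level was not tested. The 5 markers summed to 615 to 1067 CPM in olfactory nerve, 466 to 1073 CPM in outer ONL, 1634 to 2845 CPM in inner ONL and 532 to 594 CPM in trigeminal nerve.

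**Figure D1:**
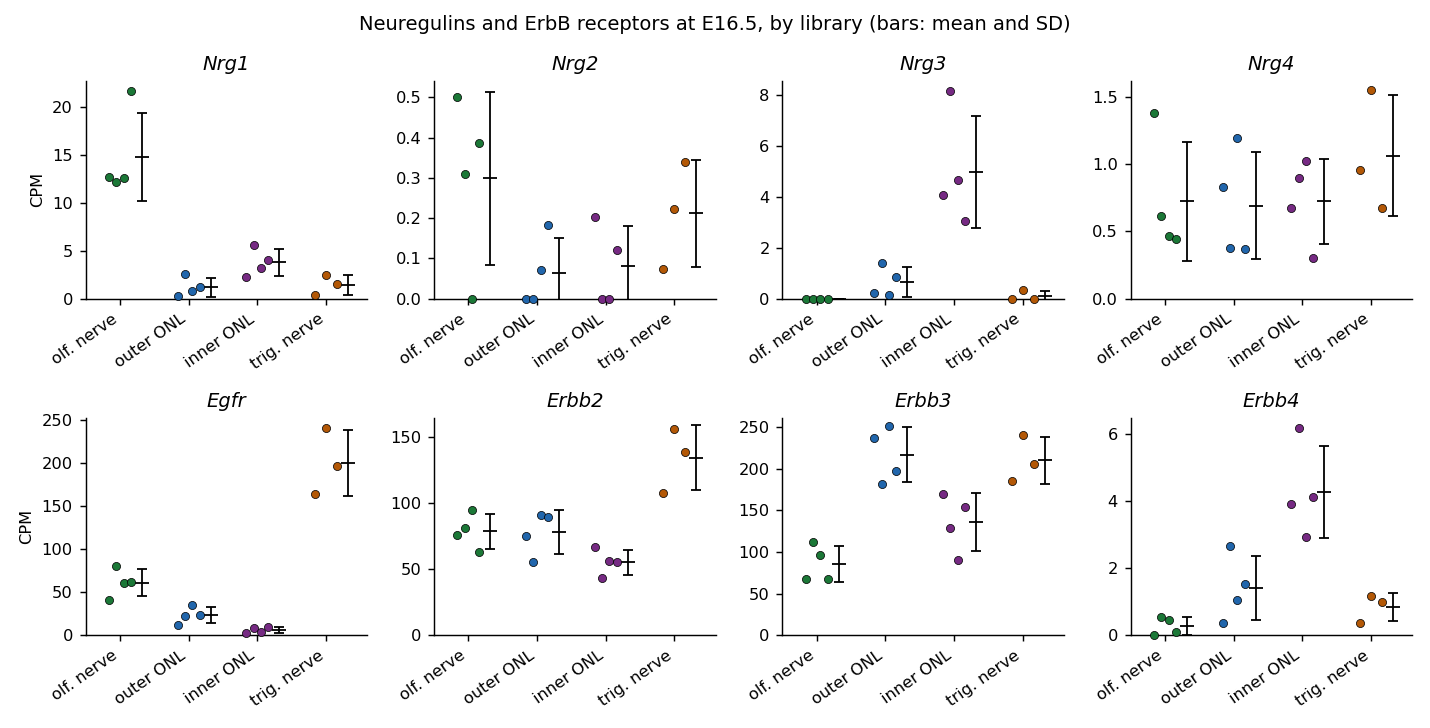
Level in CPM (vertical axes starting at 0, a scale for each gene) of the 8 genes in each E16.5 library; points are libraries and bars the group mean with 1 SD, cut off at 0. Nrg1 was highest in the 4 olfactory nerve libraries (12.1 to 21.6 CPM), Nrg3 and Erbb4 in inner ONL, and Egfr in trigeminal nerve (164 to 240 CPM).

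At the earlier stages the order of the groups for Nrg1 depended on the grouping. Regrouped, the E11.5 nerve held 59.8, 59.5, 38.7 and 57.6 CPM. The 7 libraries of the E13.5 nerve ran from 17.2 to 38.2 CPM with a median of 20.2 CPM, and the 5 of the E13.5 ONL were at 7.08, 9.01, 11.2, 12.8 and 8.26 CPM. The 3 groups did not overlap. E13.5 nerve over E11.5 nerve was -1.13 on the log2 scale (SE 0.34, adjusted p = 0.00959), and E13.5 ONL over E13.5 nerve was -1.31 (SE 0.35, adjusted p = 0.00385). By label both turned round, to 1.17 (SE 0.46, adjusted p = 0.0753) and 1.01 (SE 0.40, adjusted p = 0.0739), and neither was called. In the nerve the E16.5 over E13.5 difference was -0.74 (SE 0.36, adjusted p = 0.129) regrouped and -0.66 (SE 0.44, adjusted p = 0.292) by label. In the ONL, E16.5 outer ONL was lower than the undivided E13.5 ONL regrouped, by a log2 fold change of -3.04 (SE 0.46, adjusted p = 3.33e-06). By label the value was -5.28 (SE 0.59, adjusted p = 8.54e-08), with libraries published as nerve in place of the E13.5 ONL. Projection neuron markers summed to 6.4 to 142 CPM in outer ONL, 386 to 786 CPM in inner ONL and 771 to 1033 CPM in the regrouped E13.5 ONL. Nrg1 at E16.5 had a mean of 3.78 CPM in inner ONL. The part of tissue content in this difference, and in the change of the ONL-nerve difference given next, was not tested. The ONL-nerve difference of Nrg1, taken with outer ONL at E16.5, was itself tested between stages. It was more negative at E16.5 than at E13.5 by a log2 value of -2.30 (SE 0.56, adjusted p = 0.0053) regrouped and -4.63 (SE 0.68, adjusted p = 5.11e-05) by label, and Nrg1 was the single gene of the 7 called regrouped, where 12.3% of all genes tested were called. By label Nrg3 was called as well, with its level at 0 in the E16.5 nerve.

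**Figure D2:**
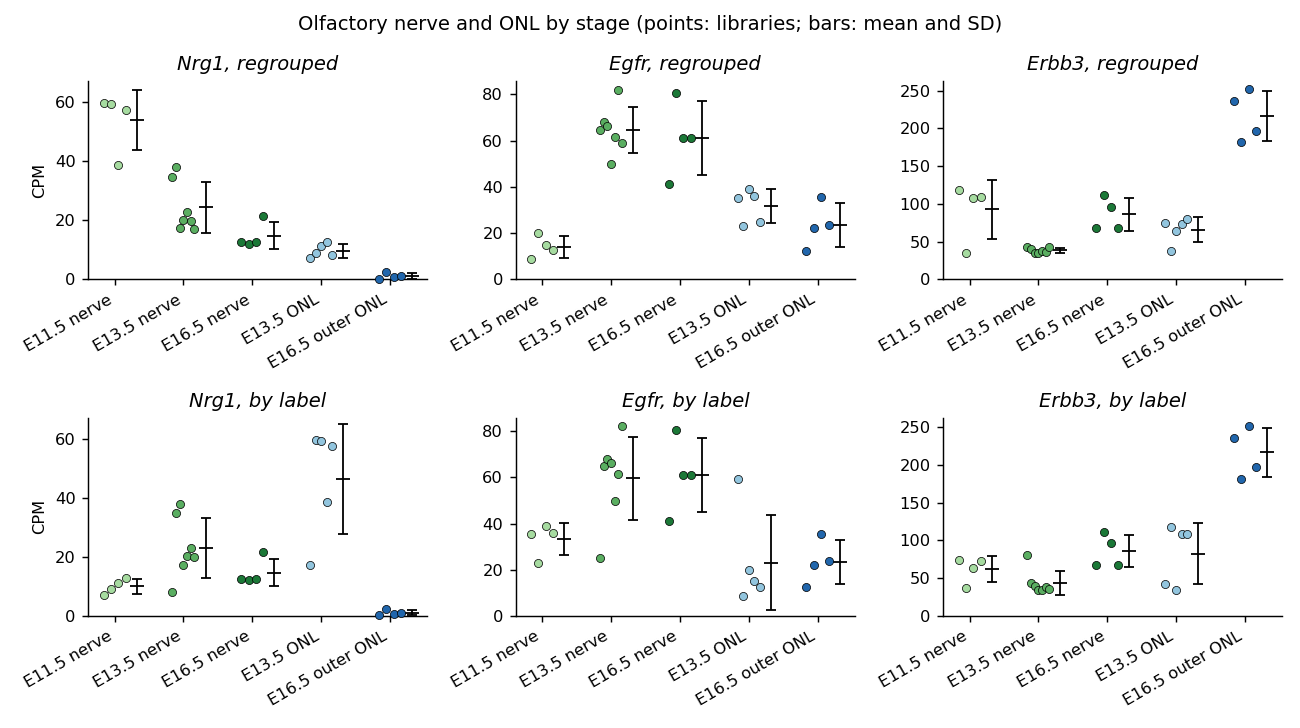
Nrg1, Egfr and Erbb3 in olfactory nerve and ONL by embryonic stage, in CPM (vertical axes from 0), with early libraries regrouped as in the published means (top) and by label (bottom); points are libraries and bars the mean with 1 SD. The ONL at E16.5 is outer ONL. Regrouped, Nrg1 in the nerve lay at 38.7 to 59.8 CPM at E11.5, 17.2 to 38.2 CPM at E13.5 and 12.1 to 21.6 CPM at E16.5, while by label the highest values fell in the E13.5 ONL.

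Nrg3 (chr14:38368952-39473088, minus strand), a neuregulin of the nervous system that binds Erbb4, and Erbb4 (chr1:68032186-69108059, minus strand), which unlike Erbb3 has an active kinase, were both low and both highest in inner ONL. Their promoters as given by RefSeq on GRCm38.p6 are shown because the pair had the same tissue of highest level. Each runs from 250 bases before to 50 bases after the annotated start, on the minus strand, at chr14:39473039-39473338 for Nrg3 and chr1:69108010-69108309 for Erbb4.
Nrg3: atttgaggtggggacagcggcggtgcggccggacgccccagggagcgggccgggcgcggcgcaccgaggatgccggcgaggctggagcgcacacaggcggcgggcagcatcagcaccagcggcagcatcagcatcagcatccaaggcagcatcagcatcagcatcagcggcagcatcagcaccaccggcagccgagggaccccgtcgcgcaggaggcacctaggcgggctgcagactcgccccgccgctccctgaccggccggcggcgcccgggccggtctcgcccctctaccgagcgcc
Erbb4: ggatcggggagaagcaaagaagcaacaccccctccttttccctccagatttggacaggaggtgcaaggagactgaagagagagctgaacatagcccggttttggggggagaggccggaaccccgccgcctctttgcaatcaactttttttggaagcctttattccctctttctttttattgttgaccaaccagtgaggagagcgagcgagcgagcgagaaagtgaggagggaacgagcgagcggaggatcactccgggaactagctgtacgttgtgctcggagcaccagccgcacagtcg
The Nrg3 window is 74.3% G or C and the Erbb4 window 55.3%. Both strands were searched for 3 motifs. The GC box, spelled GGGCGG, is in neither window and in 35.7% of the 32851 mouse promoters of the same length. Neither window holds the sequence TATAAA of the Goldberg-Hogness box, present in 13.6% of promoters. The core of many SOX protein sites, spelled ACAAAG, is likewise in neither window and in 18.7% of promoters. The windows of Erbb2 and Nrg4, genes that were not highest in inner ONL, also hold none of the 3 motifs. Their absence is thus not particular to this pair.

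In inner ONL, Nrg3 was at 4.05, 8.13, 4.67 and 3.03 CPM and Erbb4 at 3.91, 6.19, 2.93 and 4.12 CPM. In outer ONL, Nrg3 was at 0.23, 1.39, 0.14 and 0.85 CPM and Erbb4 at 0.38, 2.66, 1.05 and 1.52 CPM. In the nerves, Nrg3 had no count in any of the 4 olfactory nerve libraries and a level above 0 in 1 trigeminal nerve library (0.33 CPM), and Erbb4 lay at 0 to 0.56 CPM in olfactory nerve and 0.37 to 1.19 CPM in trigeminal nerve. For both genes all inner ONL libraries were above all others at E16.5. Against olfactory nerve, the Nrg3 level of inner ONL was at least 26.9-fold higher and that of outer ONL at least 3.54-fold higher, taking 3 counts per library as the limit that a count of 0 allows. Outer ONL libraries 1 and 3 themselves held 3 and 2 counts of Nrg3. Both differences were called (adjusted p = 0.000102 and 0.00792). Nrg3 and Erbb4 passed the count filter with inner ONL, the group where they were highest, among the E16.5 libraries. In a fit of outer ONL and olfactory nerve alone, both fell below it and were not tested. Nrg3 was higher in inner than in outer ONL by 2.91 on the log2 scale (SE 0.82, adjusted p = 0.0231), a call that ended without inner ONL library 2 (adjusted p = 0.0851), outer ONL library 1 (0.0528) or outer ONL library 3 (0.0569). Erbb4 was higher in inner ONL than in olfactory nerve (log2 fold change 3.88, SE 0.73, adjusted p = 0.000357) and trigeminal nerve (2.40, SE 0.71, adjusted p = 0.0111), the latter lost without trigeminal nerve library 1 (adjusted p = 0.0508). In outer ONL over olfactory nerve it was 2.26 (SE 0.72, adjusted p = 0.0282), lost without olfactory nerve library 1 (0.0611) or 4 (0.0741) or outer ONL library 2 (0.101) or 4 (0.0533). With all 31 libraries in 1 fit, this Erbb4 difference was not called (adjusted p = 0.0927 regrouped, 0.187 by label). Nor was Erbb4 in inner ONL over trigeminal nerve (0.06 and 0.13), or Nrg3 in inner over outer ONL by label (0.151). Inner over outer ONL was 1.62 for Erbb4 (SE 0.63, adjusted p = 0.0906), and it was called when inner and outer ONL were fitted alone, without pairing by number (adjusted p = 0.0381) and with it (adjusted p = 0.0161).

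Markers of olfactory bulb neurons were also highest in inner ONL. In inner over outer ONL all 5 interneuron markers and all 5 projection neuron markers were higher, with medians of 2.52 and 3.23. In outer ONL over olfactory nerve 2 interneuron markers were higher and 1 lower (median 1.75), and 1 projection neuron marker was higher with 4 not called (median 2.104). The interneuron markers (5 genes) summed to 107 to 160 CPM in inner ONL, 9.6 to 46.9 CPM in outer ONL, 16.4 to 32.2 CPM in olfactory nerve and 17.1 to 21.0 CPM in trigeminal nerve. The projection neuron markers summed to 386 to 786 CPM in inner ONL, 6.4 to 142 CPM in outer ONL, 83.01 to 187 CPM in olfactory nerve and 188 to 216 CPM in trigeminal nerve. Outside inner ONL the projection neuron sums did not follow Nrg3 and Erbb4. Reln, 1 of the 5 projection neuron markers, had a mean of 201 CPM in the trigeminal libraries, 115 CPM in those of olfactory nerve and 51.0 CPM in those of outer ONL. Among the outer ONL libraries, the pair with the higher levels of Nrg3 and Erbb4 (libraries 2 and 4) also had the higher interneuron sums, 46.9 and 36.3 CPM. The part of these cells in the levels of Nrg3 and Erbb4 was not tested.

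**Figure D3:**
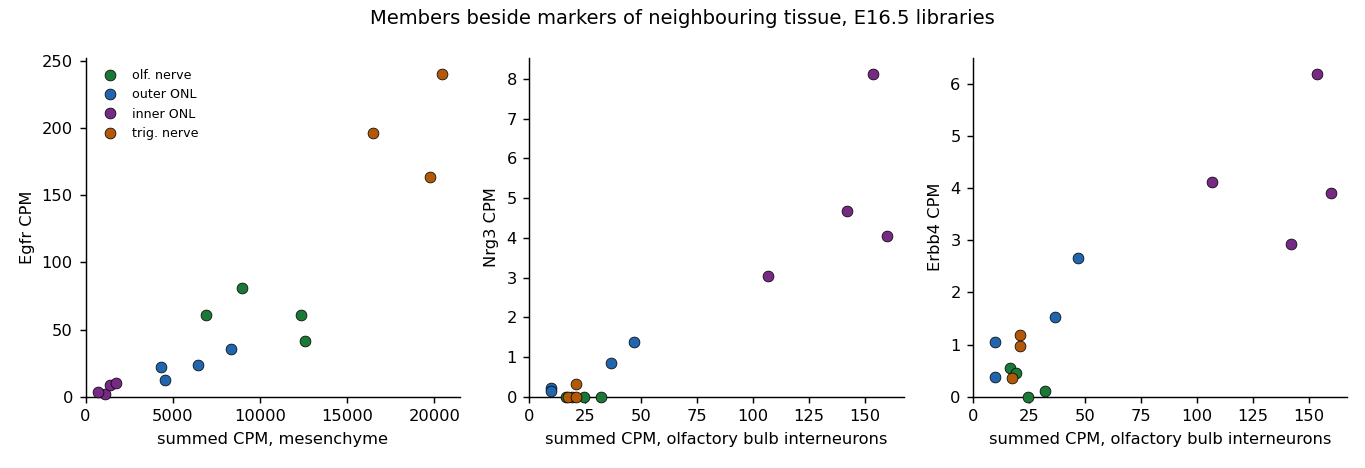
Egfr against the summed level of 5 mesenchyme markers, and Nrg3 and Erbb4 against that of 5 olfactory bulb interneuron markers, in CPM, in the 15 E16.5 libraries coloured by group. Trigeminal nerve libraries were highest in both Egfr and the mesenchyme sum, and inner ONL libraries in Nrg3, Erbb4 and the interneuron sum.

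In the regrouped E13.5 ONL, Nrg3 was at 6.81, 1.66, 2.31, 2.96 and 2.08 CPM against 0 to 0.45 CPM in the 7 E13.5 nerve libraries, with no overlap. The log2 difference was 4.40 (SE 0.91, adjusted p = 0.000374). Erbb4 was at 4.98, 0.50, 2.06, 5.71 and 3.77 CPM in the ONL, and at 0 to 0.41 CPM in 6 of the 7 nerve libraries and 1.79 CPM in the other. Its log2 difference was 3.27 (SE 0.79, adjusted p = 0.00166). By label the values were -0.85 (SE 1.00, adjusted p = 0.593) for Nrg3 and 1.40 (SE 0.86, adjusted p = 0.261) for Erbb4, and neither was called. In the nerve, Erbb4 fell from E11.5 to E13.5 regrouped (log2 fold change -2.38, SE 0.80, adjusted p = 0.0206). By label that value was -2.26 (SE 0.92, adjusted p = 0.0882).

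Nrg2 and Nrg4 (chr9:55220222-55326844, minus strand) were near the limit of detection throughout. Nrg2, which like Nrg1 binds Erbb3 and Erbb4, had 0 to 13 counts per library and at most 0.50 CPM. At E16.5 its counts were at 0 to 8 in olfactory nerve and at 0 to 3 in outer and inner ONL, so a difference was not detectable at this depth. Nrg4, an Erbb4 ligand, ran from 0.08 to 1.79 CPM over all libraries and overlapped between all groups at E16.5, and it was called in none of the comparisons. Nrg4 shares 368 exon bases (6.06%) with Fbxo22 on the other strand, a gene with up to 2107 counts in a library. The library kit does not mark strand, so reads from the shared bases cannot be told apart.

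Erbb3 (chr10:128567523-128589652, minus strand), the neuregulin receptor of Sox10-positive glia, had the highest level of the 8 genes in every E16.5 group except olfactory nerve, per length of exon (CPM divided by the exon length in kilobases, RPKM). It reached 36.0 ± 5.46 RPKM in outer ONL (SD, n = 4), 34.95 ± 4.69 in trigeminal nerve (SD, n = 3) and 22.5 ± 5.81 in inner ONL (SD, n = 4). In olfactory nerve it was at 14.3 ± 3.61 RPKM, beside 15.04 ± 2.52 for Erbb2 (SD, n = 4). In CPM, outer ONL held 236, 181, 252 and 197 and trigeminal nerve 185, 241 and 205. Inner ONL held 170, 128, 89.8 and 154 CPM and olfactory nerve 68.0, 112, 96.3 and 68.0 CPM. Outer ONL and trigeminal nerve were both above all olfactory nerve and inner ONL libraries and overlapped each other, and inner ONL overlapped olfactory nerve. Outer ONL exceeded olfactory nerve by 1.27 (SE 0.20, adjusted p = 0.000132) on the log2 scale, and olfactory nerve over trigeminal nerve was -1.20 (SE 0.21, adjusted p = 0.000326), both in every alternative fit. Outer ONL over trigeminal nerve was 0.06 (SE 0.21, adjusted p = 0.851). Inner ONL lay between outer ONL and olfactory nerve, at -0.65 against outer ONL (SE 0.20, adjusted p = 0.0288) and 0.62 against olfactory nerve (SE 0.20, adjusted p = 0.0167). With libraries paired by number, the difference from olfactory nerve was not called (0.59, adjusted p = 0.0717). The difference from outer ONL was lost without inner ONL library 2 (adjusted p = 0.0745) or 3 (0.074) or outer ONL library 1 (0.055) or 3 (0.0853), and that from olfactory nerve without inner ONL library 1 (0.0555) or 4 (0.0504) or olfactory nerve library 1 (0.0602) or 4 (0.0559). Inner ONL over trigeminal nerve was -0.58 (SE 0.21, adjusted p = 0.0319), not called without inner ONL library 2 (adjusted p = 0.065) or 3 (0.102) or trigeminal nerve library 2 (0.124) or 3 (0.064), or when scaled to total counts (0.0616). With all 31 libraries in 1 fit it was not called either (adjusted p = 0.0894 regrouped, 0.187 by label). The same fits did not call Erbb3 in inner over outer ONL (0.0792 and 0.218). By label the inner ONL difference from olfactory nerve was not called (0.122).

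**Figure D4:**
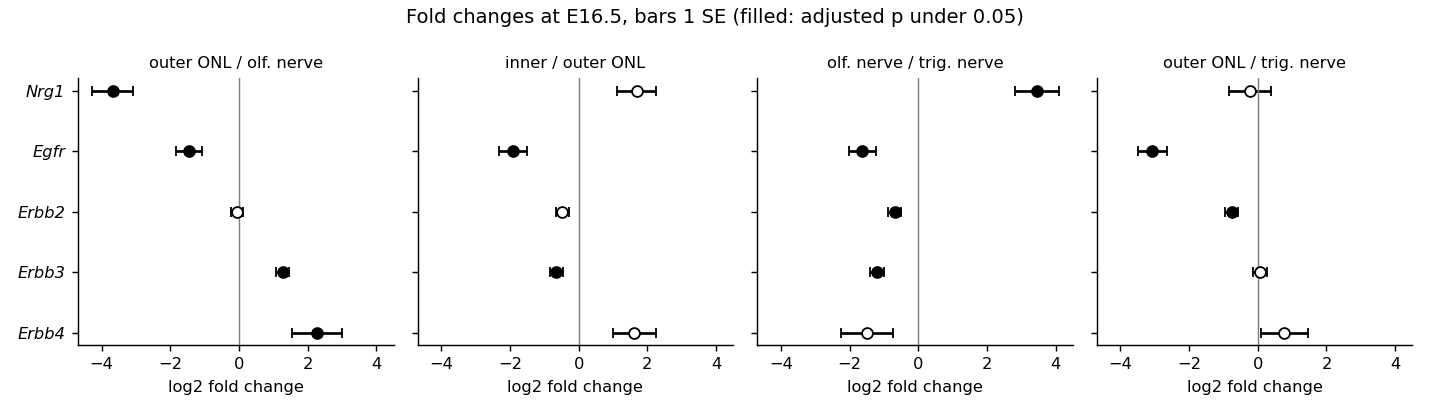
Log2 fold changes (horizontal axis, first group over second) of 5 of the genes in 4 comparisons of E16.5 tissue; bars are 1 SE and filled points had an adjusted p under 0.05. Nrg1 and Erbb3 lay on opposite sides of 0 in outer ONL over olfactory nerve, at -3.68 and 1.27, and Egfr was below 0 in all 4.

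Because Sox10 differed between the tissues, Erbb3 was also set against Sox10 in the same library, as the log2 ratio of their CPM with 0.5 added to each. The ratio Erbb3 to Sox10 ran from 0.62 to 0.78 in olfactory nerve, from 0.54 to 0.79 in trigeminal nerve, from 0.27 to 0.45 in outer ONL and from 0.13 to 0.36 in inner ONL. All olfactory nerve libraries were above all outer ONL libraries, the reverse of the order of Erbb3 itself. The mean log2 ratio was -1.57 ± 0.36 in outer ONL and -0.55 ± 0.13 in olfactory nerve (SD, n = 4 each), a difference of -1.03 (exact two-sided permutation test, p = 0.0286, adjusted over 3 comparisons p = 0.0857). That p of 0.0286 is the smallest that 4 libraries against 4 allow. Outer ONL minus trigeminal nerve was -0.87 (exact permutation test, p = 0.0571, adjusted p = 0.0857), and olfactory nerve minus trigeminal nerve was 0.16 (exact permutation test, p = 0.4, adjusted p = 0.4). All outer ONL ratios lay below all trigeminal nerve ratios, so 0.0571 is the smallest p that 4 libraries against 3 allow in this two-sided test. With these limits no adjusted p over the 3 comparisons could fall below 0.05. With libraries paired by number the outer ONL to olfactory nerve difference was the same -1.03 (exact permutation test over 4 pairs, p = 0.125, the smallest that 4 pairs allow). The 6 glia markers summed to 18218 to 32332 CPM in outer ONL, 1609 to 3813 CPM in olfactory nerve and 1355 to 1693 CPM in trigeminal nerve. Their median sums in the nerves (2064 and 1382 CPM) had the reverse order of Sox10. Gene by gene, 1 of the 6 was higher and 3 lower in olfactory than in trigeminal nerve (median -0.93). In outer ONL over trigeminal nerve 3 were higher, 2 lower and 1 not called, with a median of 0.74. In outer ONL over olfactory nerve 4 were higher, 0 lower and 2 not called, with a median of 1.61. The sums thus do not stand for all 6 markers. A ratio of Erbb3 to other glia markers was not tested.

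**Figure D5:**
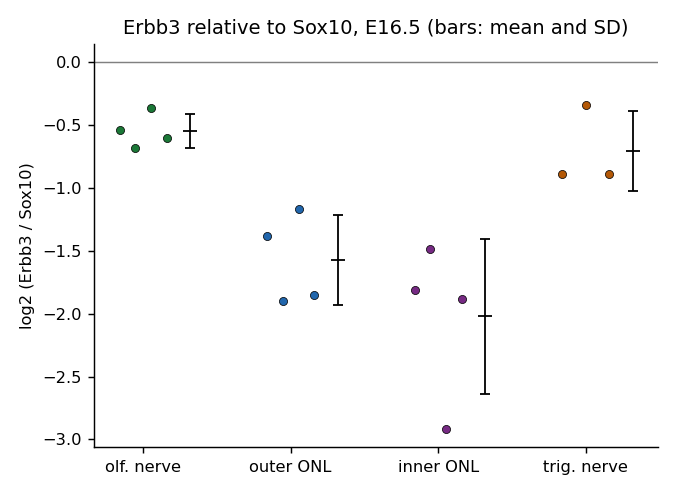
Log2 ratio of Erbb3 to Sox10 CPM in each E16.5 library (vertical axis; 0 means equal levels), with the group mean and 1 SD as bars. The olfactory nerve mean was -0.55 and the outer ONL mean -1.57, with no overlap between these libraries.

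Across stages, Erbb3 rose in the nerve from E13.5 to E16.5 under both groupings. It was also higher in E16.5 outer ONL than in the undivided E13.5 ONL regrouped, and than in the libraries labelled E13.5 ONL, which had entered nerve means. In the nerve the log2 value was 1.15 (SE 0.23, adjusted p = 0.000319) regrouped and 0.96 (SE 0.28, adjusted p = 0.0126) by label. For E16.5 outer ONL over E13.5 ONL it was 1.70 (SE 0.25, adjusted p = 2.23e-06) regrouped and 1.40 (SE 0.30, adjusted p = 0.000664) by label. These tissues also differed in projection neuron markers, which summed to 6.4 to 142 CPM in E16.5 outer ONL and 771 to 1033 CPM in the regrouped E13.5 ONL. The part of tissue content in this difference was not tested. Regrouped, the ONL was above the nerve at E13.5 as well, by 0.79 (SE 0.22, adjusted p = 0.0048). The value by label was 0.91 (SE 0.26, adjusted p = 0.0192), with libraries published as nerve in place of the ONL. The ONL-nerve difference at E16.5, taken with outer ONL, minus that at E13.5 was 0.56 (SE 0.34, adjusted p = 0.345), so a change of the difference with stage was not called. The regrouped E13.5 nerve was the most uniform group, at 34.5 to 43.4 CPM. The regrouped E11.5 nerve held 118, 34.4, 108 and 109 CPM, and E13.5 nerve was lower than it by a log2 fold change of -1.25 (SE 0.23, adjusted p = 6.63e-05). By label that value was -0.53 (SE 0.28, adjusted p = 0.209).

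Egfr (chr11:16752203-16918158, plus strand), the EGF receptor, had the widest range at E16.5 among the genes detected in all 15 of these libraries. Its RefSeq promoter, on the plus strand at chr11:16751953-16752252, is shown as the only window of the 5 found that holds a GC box. That single GC box (CCGCCC, the other strand of GGGCGG) is in capitals.
Egfr: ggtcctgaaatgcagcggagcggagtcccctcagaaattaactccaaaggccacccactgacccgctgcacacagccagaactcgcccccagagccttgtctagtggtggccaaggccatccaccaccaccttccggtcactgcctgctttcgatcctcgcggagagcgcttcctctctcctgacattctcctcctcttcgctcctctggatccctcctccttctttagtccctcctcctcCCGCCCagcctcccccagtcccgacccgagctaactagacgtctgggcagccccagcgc
Trigeminal nerve held 164, 240 and 196 CPM and olfactory nerve 41.3, 80.6, 61.1 and 61.2 CPM. Outer ONL held 12.4, 22.0, 35.4 and 23.7 CPM and inner ONL 2.09, 8.80, 3.40 and 10.003 CPM. The 4 groups did not overlap, in the order trigeminal nerve, olfactory nerve, outer ONL and inner ONL. Each step was called. Olfactory nerve over trigeminal nerve was -1.62 (SE 0.39, adjusted p = 0.00512), outer ONL over olfactory nerve -1.44 (SE 0.38, adjusted p = 0.00866) and inner over outer ONL -1.90 (SE 0.40, adjusted p = 0.00294), all on the log2 scale and in every alternative fit. The summed level of 5 mesenchyme markers had the same order of tissues, at 16468 to 20452 CPM in trigeminal nerve, 6905 to 12589 CPM in olfactory nerve, 4319 to 8365 CPM in outer ONL and 708 to 1729 CPM in inner ONL. Col3a1 made up most of the sum in trigeminal nerve, with a mean of 14294 CPM there and 6258 CPM in olfactory nerve. Gene by gene, 5 of the 5 markers were lower in inner than in outer ONL (median -2.07) and 3 were lower in outer ONL than in olfactory nerve (median -1.05). In olfactory nerve over trigeminal nerve 1 was lower and 4 were not called, and the median was 0.47, against the sign of the Egfr difference. Within olfactory nerve the library with the largest mesenchyme sum (library 1, 12589 CPM) had the lowest Egfr level. The part of mesenchyme in the Egfr level was not tested.

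At E13.5, Egfr was lower in the ONL than in the nerve regrouped, by a log2 fold change of -1.01 (SE 0.28, adjusted p = 0.00493). By label it was -1.37 (SE 0.40, adjusted p = 0.0186), where the libraries named ONL had entered nerve means. Regrouped, the E11.5 nerve held 8.79 to 19.9 CPM, below all E13.5 nerve libraries (49.7 to 82.2 CPM), and the log2 fold change was 2.21 (SE 0.32, adjusted p = 2.58e-06). By label it was 0.81 (SE 0.42, adjusted p = 0.199). The mesenchyme sum was 1225 to 1906 CPM in the regrouped E11.5 nerve and 2421 to 5083 CPM in the regrouped E13.5 nerve. From E13.5 to E16.5 Egfr in the nerve differed by -0.09 (SE 0.29, adjusted p = 0.843), beside the mesenchyme sum of 6905 to 12589 CPM given above for the E16.5 nerve.

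Erbb2 (chr11:98412470-98437716, plus strand) is the co-receptor of the others. In olfactory nerve it was at 75.4, 80.8, 94.4 and 62.7 CPM and in outer ONL at 75.0, 55.5, 91.1 and 89.6 CPM, and these overlapped. Inner ONL held 66.3, 42.9, 55.9 and 55.3 CPM and trigeminal nerve 107, 156 and 138 CPM, above every other E16.5 library. Olfactory nerve over trigeminal nerve was -0.69 (SE 0.19, adjusted p = 0.0118), lost without trigeminal nerve library 2 (adjusted p = 0.0529), and outer ONL over trigeminal nerve was -0.76 (SE 0.19, adjusted p = 0.0053). Outer ONL over olfactory nerve was -0.07 (SE 0.18, adjusted p = 0.832), and inner ONL over olfactory nerve was -0.54 (SE 0.18, adjusted p = 0.0223), lost without inner ONL library 2 (0.0766) or olfactory nerve library 3 (0.0876). With all 31 libraries in 1 fit the latter was not called (adjusted p = 0.115 regrouped, 0.0849 by label). Erbb2 was higher in E16.5 outer ONL than in the undivided E13.5 ONL regrouped (log2 fold change 1.15, SE 0.23, adjusted p = 0.000191) but not by label (0.09, SE 0.21, adjusted p = 0.776). Its E13.5 difference between ONL and nerve was -0.58 (SE 0.21, adjusted p = 0.0328) regrouped and 0.55 (SE 0.18, adjusted p = 0.0341) by label, called in opposite directions. The regrouped call was lost without any 1 of 7 libraries (adjusted p 0.0509 to 0.108), those labelled E11.5 olfactory nerve 1 to 4, E13.5 olfactory nerve 4 and 7 and E13.5 ONL 1. In the nerve, E16.5 over E13.5 was 0.56 for Erbb2 regrouped (SE 0.21, adjusted p = 0.0473), which did not hold without any 1 of 7 libraries, E13.5 olfactory nerve 2, 3, 5 and 6 and E16.5 olfactory nerve 1 to 3 (adjusted p 0.0714 to 0.0994). By label it was 0.63 (SE 0.19, adjusted p = 0.0168). E13.5 over E11.5 nerve was -0.50 regrouped (SE 0.21, adjusted p = 0.0637), not called, and 0.71 by label (SE 0.20, adjusted p = 0.0148), called.

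Counted over the 7 genes tested, outer ONL against olfactory nerve called 5 genes (25.7% of all 17800 genes tested were called) and outer ONL against trigeminal nerve called 2 (31.3% of all). Olfactory nerve against trigeminal nerve called 4 (26.9% of all) and inner against outer ONL called 3 (17.7% of all). Inner ONL against olfactory nerve called 6 (40.3% of all) and against trigeminal nerve 5 (43.9% of all). Regrouped, E13.5 ONL against nerve called 6 (31.5% of all 19332 genes tested), E13.5 against E11.5 nerve 4 (36.6%), E16.5 against E13.5 nerve 2 (28.8%) and E16.5 outer ONL against E13.5 ONL 3 (41.9%). By label the same comparisons called 3 (17.7%), 1 (17.5%), 3 (25.1%) and 2 (35.2%). The comparisons of the E16.5 groups share libraries with one another. With so few genes, a count near the share for all genes says nothing particular about this family.

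The wider pathway was described by lists of other EGF-family ligands, of shedding enzymes and their partners, of adaptors, of negative regulators and of genes that respond to ERK signalling. Of all genes tested, 10.3% were called higher and 15.4% lower in outer ONL than in olfactory nerve, and 15.1% higher and 16.2% lower in outer ONL than in trigeminal nerve. Nothing particular to a list is read from its count. Of the other ligands, 4 of 7 passed the filter. Tgfa, which encodes the Egfr ligand transforming growth factor alpha, was at 72.4 to 115 CPM in inner ONL, 30.6 to 37.0 CPM in outer ONL, 26.5 to 33.3 CPM in trigeminal nerve and 9.47 to 22.5 CPM in olfactory nerve. It was higher in outer ONL than in olfactory nerve by 1.14 (SE 0.23, adjusted p = 0.00136) and in inner than in outer ONL by 1.52 (SE 0.23, adjusted p = 0.000255). Btc, betacellulin, was at 0.19 to 5.70 CPM in olfactory nerve and 0 to 0.91 CPM in outer ONL, which overlapped, with a log2 value of -3.42 for outer ONL over olfactory nerve (SE 0.95, adjusted p = 0.0122). Hbegf, another Egfr and Erbb4 ligand, was lower in outer ONL than in trigeminal nerve by a log2 fold change of -1.36 (SE 0.18, adjusted p = 1.47e-05). Of the 6 shedding and processing genes, 3 were lower in outer ONL than in olfactory nerve and none higher, among them Bace1, a protease that cleaves Nrg1 (-0.94, SE 0.16, adjusted p = 0.000263). Against trigeminal nerve 4 of 6 were lower, with a list median of -0.77 beside -0.0039 for all genes, and Rhbdf2, a partner of the sheddase Adam17, had the largest difference (-2.002, SE 0.22, adjusted p = 2.11e-06). Between inner and outer ONL 0 of these 6 were called.

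Of the 8 adaptor and relay genes, 2 were lower in outer ONL than in olfactory nerve (Shc1, -0.80, SE 0.20, adjusted p = 0.00565, and Erbin, which binds Erbb2) and none higher. Of the 6 negative regulators, 1 was higher and 2 were lower in outer ONL than in olfactory nerve. The higher gene was Lrig1, a transmembrane protein that promotes the loss of ErbB receptors, at 176 to 210 CPM in outer ONL, 185 to 261 CPM in inner ONL, 39.2 to 44.0 CPM in trigeminal nerve and 21.7 to 31.4 CPM in olfactory nerve. The ONL libraries did not overlap those of either nerve, and outer ONL exceeded olfactory nerve by 2.85 (SE 0.14, adjusted p = 3.98e-09) and trigeminal nerve by 2.23 (SE 0.15, adjusted p = 1.25e-08). Its relative Lrig3 was lower in outer ONL than in olfactory nerve (-0.86, SE 0.22, adjusted p = 0.0077), as was the ubiquitin ligase Cblb (-0.88, SE 0.21, adjusted p = 0.00478). Of the 8 ERK-responsive genes, 4 were higher and 2 lower in outer ONL than in trigeminal nerve, with a list median of 0.84 beside -0.0039 for all genes. Those higher were the ETS transcription factors Etv1 (1.59, SE 0.22, adjusted p = 2.59e-05), Etv4 and Etv5 and the inhibitor Spry4, and those lower were the immediate early genes Egr1 (-2.06, SE 0.37, adjusted p = 0.000319) and Fos. Against olfactory nerve Etv1 and Etv5 were higher and Egr1 and Fos lower.

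Genes whose level followed a member most closely over the 15 E16.5 libraries were sought among 12161 genes with a mean of at least 5 CPM, by Pearson's r of log2 levels. The libraries share tissue groups, so these r are descriptions of the group pattern. For Nrg1 the 3 highest were Miat (0.95), Cyb561 (0.95) and Gnal (0.94), the last of which encodes the G protein alpha subunit of olfactory sensory neurons. For Egfr they were Plagl1 (0.99), Igf2r (0.99) and Antxr1 (0.99), and for Erbb2 Surf4 (0.98), Uap1l1 (0.96) and Stx2 (0.94). Erbb3 was followed most closely by Ttyh2 (0.95), Shpk (0.93) and Tmem252 (0.93).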

How the data were processed

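The authors deposited a matrix of read counts per gene for 31 libraries. According to the study's methods and processing notes, laser-microdissected pieces were amplified with a SMART-seq kit, reads were aligned to mm10 with TopHat2 2.1.0, and counted with HTSeq. The strand setting was not given in the sources used here. Counts were used as deposited, and 1 row with no gene name was dropped. Gene positions and exon lengths came from the GENCODE M21 annotation of GRCm38, and promoters, found for 5 of the 8 genes, from RefSeq.

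Tests used edgeR 4.0.16 (filterByExpr, TMM scaling, quasi-likelihood F test, Benjamini-Hochberg adjustment over all genes), with the 15 E16.5 libraries in 1 fit (17800 genes) and all 31 in another (19332 genes) for stage comparisons. CPM used TMM over all 31 libraries. DESeq2, other filters, total-count scaling, leaving out libraries, a replicate block and grouping by label were alternatives. The edgeR step was tested on simulated data. The E16.5 groups share embryos, and olfactory nerve and outer ONL libraries with the same number deviated together (correlations 0.15 to 0.30 in all 4 pairs). Those with different numbers had correlations of -0.26 to 0.25, so the 2 ranges overlap. Fits with the number as a block are given where they changed a call at E16.5. The family and its pathway lists were chosen with earlier results of these data known. Genes were named by rule: the 8 members, up to 4 called genes of each list with the largest difference, and the 3 genes most correlated with each member above 5 CPM. Etv4 and Spry4 were chosen after their values were seen. Intervals and limits on counts of 0 cover counting error only.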

Additional observations from a re-analysis of the deposited data

Results flagged for a closer look

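Within a group, 1 library stood apart by Dixon's test in 6 of the 45 groups tested, where chance gives about 1 in 20. Nrg1 was at 21.6 CPM in E16.5 olfactory nerve library 4 against 12.1 to 12.7 CPM in the others, and in the regrouped E11.5 nerve it was at 38.7 CPM in the library labelled E13.5 ONL 4 against 57.6 to 59.8 CPM. In the same regrouped E11.5 nerve, Erbb3 was at 34.4 CPM in the library labelled E13.5 ONL 3 against 108 to 118 CPM. In the regrouped E13.5 ONL, Nrg3 was at 6.81 CPM in the library labelled E11.5 olfactory nerve 1 against 1.66 to 2.96 CPM, and Erbb2 at 53.5 CPM in the library labelled E13.5 olfactory nerve 1 against 25.9 to 33.8 CPM. Erbb4 was at 1.79 CPM in the library labelled E13.5 ONL 1, regrouped as E13.5 nerve, against 0 to 0.41 CPM in the others.

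The difference between ONL and nerve in Nrg1 differed between stages, by an interaction term of -2.30 on the log2 scale (edgeR adjusted p = 0.0053). It was taken with outer ONL at E16.5 and the undivided ONL at E13.5.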

How the results depend on the processing

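Over 50 differences of single genes and 820 alternatives, 24 differences kept their direction and their side of the threshold in every alternative; in the alternatives of the others, 60 lost a call, 17 gained one and 12 changed sign. Grouping by label turned round Nrg1 (1.01), Nrg3 (-0.85) and Erbb2 (0.55) in E13.5 ONL over nerve, Nrg1 (1.17) and Erbb2 (0.71) in E13.5 over E11.5 nerve, and Egfr in E16.5 over E13.5 nerve (0.0256). Small differences that were not called also changed sign. Outer ONL over olfactory nerve for Erbb2 was 0.0099 with all 31 libraries under both groupings and -0.16 to 0.0737 with 1 library left out. With 1 library left out, outer ONL over trigeminal nerve for Erbb3 was -0.0136 to 0.19, and E16.5 over E13.5 nerve for Egfr was -0.26 to 0.0573. The cause was not tested.

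The number of the 7 genes called in outer ONL against olfactory nerve was 3 when these groups were fitted alone, with or without the replicate block, since Nrg3 and Erbb4 fell below the count filter in that fit. In inner against outer ONL it was 5 with DESeq2 and with the replicate block, 1 with all libraries by label, and 1 to 6 with 1 library left out: 1 without inner ONL library 2 or outer ONL library 1 or 3, 5 without inner ONL library 1 and 6 without outer ONL library 2. By label it was 3 in inner ONL against trigeminal nerve, 3 in E13.5 ONL against nerve, 1 in E13.5 against E11.5 nerve and 2 in the difference between stages. In E16.5 against E13.5 nerve it was 1 without a filter or with total counts, and 1 to 2 with 1 library left out. The Erbb3 to Sox10 ratio kept its direction in every alternative. The E16.5 groups share embryos, but whether a number marks an embryo was not given in the sources used here. Beyond olfactory nerve and outer ONL, the lowest correlation of same-numbered libraries was -0.17 to 0.03. The replicate block ended the Erbb3 call in inner ONL over olfactory nerve and added that of Nrg1 in inner over outer ONL, where Erbb4 was called in the fit of the 2 groups alone with or without it. It changed no other call among the 8 genes where the gene was tested.

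Over all genes, scaling to total counts moved the median log2 difference of olfactory nerve over trigeminal nerve from 0.03 to 0.22, with 3811 genes higher and 1352 lower instead of 2702 and 2086, and of outer ONL over trigeminal nerve from -0.0039 to 0.13, with 3503 and 2304 instead of 2695 and 2884. Calls in inner against outer ONL were 3147 with the 15 E16.5 libraries, 2733 with all 31 regrouped and 1658 with all 31 by label. By label they fell from 6087 to 3421 in E13.5 ONL against nerve and from 7071 to 3380 in E13.5 against E11.5 nerve. In fits of the 2 groups alone, the replicate block lowered them from 4836 to 3317 in outer ONL and from 4686 to 3183 in olfactory nerve against trigeminal nerve, where the fit of 15 libraries called 5579 and 4788. Depth limits Nrg2, Nrg3, Nrg4 and Erbb4, whose counts were few in most libraries.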
